A study of Homo sapiens with 4 samples.

Results

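Broad H3K27ac domains were taken as the peaks of 10000 bp or more that were called in 2 human B-cell precursor acute lymphoblastic leukemia (BCP-ALL) cell lines, REH and 697. They were selected on the length column of the peak lists alone, on autosomes, and overlapping broad peaks of both lines were merged. The 257 broad peaks among the 43547 autosomal peaks of REH and the 327 among the 73460 of 697 gave 502 domains. The whole series holds 87374 regions when all autosomal peaks of both lines are merged in the same way. Each cell line gave 1 H3K27ac ChIP-seq library and 1 library of input DNA, and neither line was treated. REH, an established line, is positive for ETV6/RUNX1 and has lost its other ETV6 allele, and 697 is an established BCP-ALL line without this fusion. Both were grown in RPMI with fetal bovine serum. There were no replicate libraries, so no difference between the lines has a replicate check, no test was possible, and a feature of the line cannot be told apart from one of its library. After filtering, 65241657 REH and 68911420 697 ChIP tags remained, and the input libraries kept 73916142 and 74026548 tags. Positions are given on hg19, the build of the deposited lists, for which no gene annotation was used here. Domains are therefore named by position, and the marker genes of the B lineage were not checked.

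H3K27ac, acetylation of lysine 27 on histone H3, marks nucleosomes at active promoters and enhancers. A single promoter or enhancer usually carries a short stretch of the mark. Long stretches arise where several active elements lie close together or where acetylation spreads into a gene body, and in many cell types such stretches lie near genes of cell identity. MACS in broad mode joins nearby enriched segments into 1 peak, so the length of a peak depends both on the extent of the mark and on how far apart the segments are.

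The hg19 windows of 5 lncRNAs were read from the axes of the study's track drawings, and of these 5 only lnc-RTN4R-1 had a broad domain in its window. The other lncRNAs of the study were not placed here. This long intergenic non-coding RNA is LINC02891 in RefSeq, and GENCODE v44 annotates it (ENSG00000249923) on the minus strand of GRCh38 at chr22:20198729-20204918, with 4 exons. Its promoter is shown because it is the only member with a gene that could be named without an annotation on the build of the lists. The run below is RefSeq sequence of GRCh38.p14, chr22:20204869-20205168 on the minus strand, and its coordinates must not be set beside the hg19 coordinates of the domains. It holds 250 bases before the transcription start in lower case and the first 50 transcribed bases in capitals.

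LINC02891 (lnc-RTN4R-1) promoter: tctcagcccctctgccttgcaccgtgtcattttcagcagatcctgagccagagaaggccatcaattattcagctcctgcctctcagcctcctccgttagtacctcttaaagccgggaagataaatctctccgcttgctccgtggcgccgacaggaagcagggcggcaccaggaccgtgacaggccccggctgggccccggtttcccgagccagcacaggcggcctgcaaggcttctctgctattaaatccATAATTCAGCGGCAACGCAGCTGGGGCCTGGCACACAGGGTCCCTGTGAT

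The GC content of these 300 bases was 59.7%, against a median of 58.7% over 35116 promoters of the same length, and they held 15 CpG dinucleotides, against a median of 14. The letters TGTGGT, a core motif bound by RUNX proteins, were found on neither strand of this window, and 13.1% of all promoters held them on either strand. The letters TATAAA of the TATA box were also found on neither strand, against 11.5% of all promoters.

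The domain of lnc-RTN4R-1 was broad in both lines and lay at chr22:20185477-20203859 on hg19. In REH it held a peak of 10443 bp at chr22:20185477-20195919 and a second peak of 4609 bp at chr22:20197892-20202500. In 697 it held a peak of 12455 bp at chr22:20191405-20203859, preceded by peaks of only 867 bp and 461 bp. The broad peaks of the lines were thus offset from each other, with that of REH on the left of the domain and that of 697 on its right. They shared 4515 bp, or 43.2% of the REH peak, the shorter of the pair. In the 74 domains that joined 1 broad peak of each line, no pair shared less of its shorter peak. The class of this domain thus rests on merging at 1 shared bp. When 50% of the smaller peak had to be shared instead, this pair fell short. Domains broad in both lines then numbered 77 in place of 78, with 179 in REH only and 247 in 697 only. In the windows of the other 4 lncRNAs, the longest REH peaks had 6011 bp (lnc-NKX2-3-1), 5580 bp (lnc-LRP8-3), 3306 bp (lnc-TIMM21-5) and 1120 bp (lnc-ASTN1-1). The longest 697 peaks in these windows had 775 bp at lnc-NKX2-3-1 and 3691 bp at lnc-LRP8-3, and none was called at lnc-TIMM21-5 or lnc-ASTN1-1.

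Broad peaks were rare in number in both lines. Being the longest peaks by selection, they necessarily carried a larger share of the bases under peaks. In REH they were 0.590% of the autosomal peaks (95% Wilson interval 0.522 to 0.667) and 5.64% of the 66268236 bases under peaks. In 697 they were 0.445% of the peaks (0.400 to 0.496) and 4.69% of the 100126299 bases. These and all other intervals are at the 95% level and cover counting error only, as if peaks were independent, which neighbouring peaks are not. The length distributions above the threshold were alike, with a median of 12990 bp in REH (binomial interval 12563 to 13328) and of 12832 bp in 697 (12428 to 13262). Most broad peaks were shorter than 15000 bp (178 in REH and 235 in 697), and 5 and 7 reached 30000 bp. The longest had 43840 bp in REH and 45025 bp in 697. No gap in the lengths separated the members from the other peaks. The shortest 2 members had 10056 and 10061 bp in REH and 10005 and 10028 bp in 697, and the longest 2 peaks outside had 9975 and 9966 bp in REH and 9990 and 9977 bp in 697.

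Of the 502 domains, 78 were broad in both lines (15.5%, Wilson interval 12.6 to 19.0), 178 in REH only (35.5%, 31.4 to 39.7) and 246 in 697 only (49.0%, 44.7 to 53.4). All line-only domains consisted of 1 broad peak, and of those broad in both lines 74 joined 2 broad peaks and 4 joined 3. Domains broad in both lines had a median length of 17252 bp as merged, against 12640.5 bp for REH only and 12747 bp for 697 only. Merging 2 or 3 offset peaks lengthens a domain by construction. In the 74 domains that joined 1 broad peak of each line, the single peaks had medians of 14397.5 bp in REH and 13768.5 bp in 697. The domains broad in both lines, in REH only and in 697 only covered 1474145, 2449706 and 3466525 bp. Because 697 has more broad peaks under the same threshold, the classes are unequal in part by construction: with the 257 longest autosomal peaks of each line, 190 domains were broad in REH only, 188 in 697 only and 66 in both.

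Broad status was shared less often at longer thresholds, which also leave fewer peaks to meet. Of the REH peaks of 2000 bp or more, 58.5% (57.5 to 59.4) overlapped a 697 peak of that length, against 46.0% (43.4 to 48.6) at 5000 bp, 30.7% (25.4 to 36.6) at 10000 bp and 16.1% (7.09 to 32.6) at 20000 bp. The shares of the 697 peaks were 41.6%, 30.4%, 24.8% and 16.1%. At 20000 bp, each line had 31 peaks and 5 of them met.

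Nearly all broad peaks lay where the other line also had at least some called peak. Of the 257 REH broad peaks, 245 overlapped a 697 peak by 1 bp or more (95.3%, Wilson interval 92.0 to 97.3), against 64.3% of all autosomal REH peaks. Of the 327 broad peaks of 697, 305 overlapped a REH peak (93.3%, 90.02 to 95.5), against 38.5% of all. Long peaks meet another peak more often by their extent alone, so the share of their bases was compared across length classes. At least 50% of the bases lay under 697 peaks in 73.2% of the REH broad peaks (67.4 to 78.2), against 53.3% of all REH peaks and 70.3% (67.7 to 72.9) of those from 5000 bp up to the threshold. At least 50% of the bases lay under REH peaks in 53.5% of the broad 697 peaks (48.1 to 58.9), against 28.8% of all 697 peaks and 48.3% (46.1 to 50.6) of those from 5000 bp up to the threshold. From 2000 bp upwards the median share was 75.4%, 73.1% and 71.3% in REH and 47.5%, 47.6% and 55.1% in 697. It was thus lowest in the broad class in REH and highest in the broad class in 697. The intervals of the broad class overlapped those of the class below it (63.9 to 74.6 against 70.4 to 75.5 in REH, 47.7 to 59.8 against 44.5 to 51.1 in 697). By overlap of these intervals broad peaks were not set apart from the class below, which does not show that the classes are alike. Any overlap was found for 92.1% (90.4 to 93.5) of the REH peaks from 5000 bp up to the threshold. For 697 peaks of these lengths the share was 84.4% (82.7 to 86.0). The interval of the broad class given above overlapped that of this class in REH and lay above it in 697.

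**Figure D1:**
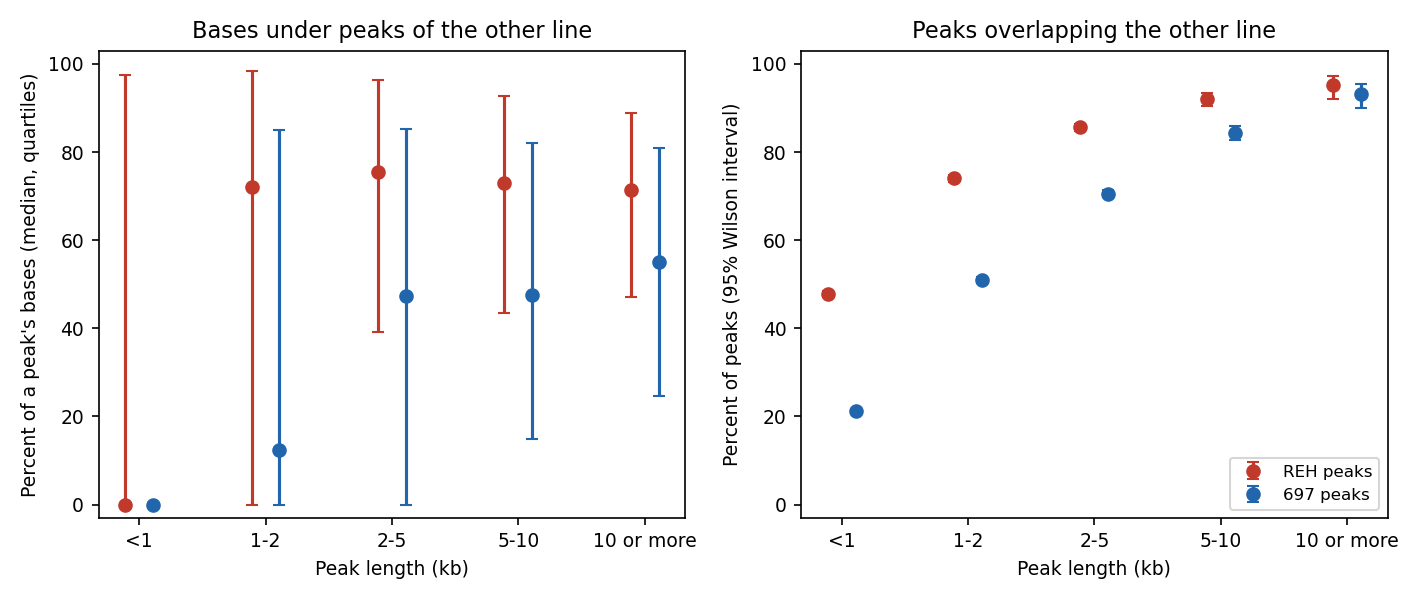
Overlap with the other line by peak length for all autosomal peaks. The left panel plots the percent of a peak's bases under peaks of the other line (points are medians, bars quartiles), by peak length in kb. The right panel plots the percent of peaks with any overlap (bars, 95% Wilson intervals). Any overlap reached 95.3% in REH and 93.3% in 697 in the longest class. The median share of bases there was 71.3% in REH and 55.1% in 697, against 73.1% and 47.6% in the class of 5 to 10 kb.

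The domains broad in both lines were covered by peaks of both over most of their length. A median of 86.0% of a domain's bases lay under peaks of both lines at once (quartiles 79.2 and 91.9, range 43.9 to 99.2). REH peaks covered a median of 94.95% and 697 peaks of 95.9%, and no domain of this class differed 2 times or more in covered bases. The class requires a peak of 10000 bp or more of each line, so these coverages are high in part by construction. The same holds for the lack of a difference of 2 times. In the 74 domains with 1 broad peak of each line, the REH peak was the longer in 38 and the 697 peak in 36, and in 17 the longer peak was at least 1.5 times the shorter. The lengths of the paired peaks had a Spearman correlation of 0.286 across these 74 domains, whose points share the libraries and the same lower limit of length. The shorter peak lay wholly inside the longer in 32. The ends matched less closely than the bodies: the median distance between corresponding ends was 1456 bp, 50 of the 148 ends lay within 500 bp of each other, and in 7 domains both did.

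The longest domain of all, chr19:4886261-4933855, had 47595 bp. REH covered 44055 bp of it, with a longest peak of 41329 bp, and 697 covered 26666 bp, nearly all of it in 1 peak of 26093 bp. As drawn in the map of the longest domains, the 697 peak ended near the centre and the REH peak ran on to the right edge. At chr11:122554923-122598762, 1 REH peak spanned all 43840 bp, and 6 peaks of 697 covered 35086 bp of it. At chr2:47934794-47975326 the lines were nearly the same, with a REH peak of 40533 bp and a 697 peak of 38333 bp. At chr6:41970960-42010390 the longest peaks had 23445 bp in REH and 32490 bp in 697. At chr5:158227610-158258481 a 697 peak spanned all 30872 bp and REH covered 22611 bp. The next 5 by length were chr5:172254496-172283354, chr8:130546662-130574653, chr6:26020028-26046979, chr1:230236720-230263024 and chr11:67033386-67058606, with 25221 to 28859 bp. Of these, chr8:130546662-130574653 was the most uneven, with 14568 bp under REH peaks and 27992 bp under 697 peaks. The closest match of all was chr6:27796452-27808418, where peaks of 11967 bp in REH and 11866 bp in 697 started 71 bp and ended 30 bp apart.

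Most domains that were broad in only 1 line were not empty in the other. The 178 domains broad in REH only had a median of 58.6% of their bases under 697 peaks (binomial interval 53.1 to 61.8, quartiles 34.9 and 73.6), and the 246 broad in 697 only had 39.2% under REH peaks (33.6 to 44.6, quartiles 16.3 and 60.8). In total, 697 peaks covered 1267460 of 2449706 bp (51.7%) and REH peaks 1347335 of 3466525 bp (38.9%). The highest shares were 94.8% and 95.1%, at chr16:57172478-57187973 and chr5:79475434-79492118. The other line covered 90% or more of 9 REH-only and 3 697-only domains. It covered less than 50% of 68 REH-only domains (38.2%, Wilson interval 31.4 to 45.5) and of 152 697-only domains (61.8%, 55.6 to 67.6). The lower share in 697-only domains goes with the smaller extent of the REH list as a whole, given above, and the part of that extent in this difference was not tested.

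**Figure D2:**
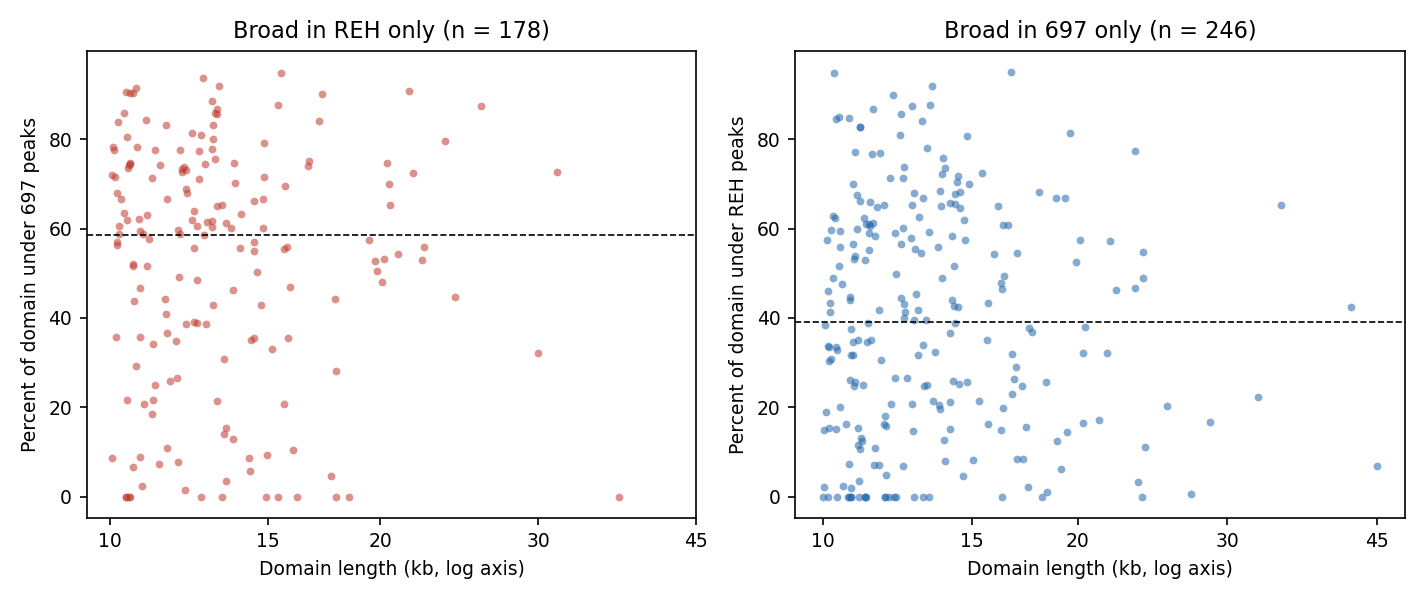
Share of each line-only domain under peaks of the other line. Each point is 1 domain, with its length in kb on a log axis and the percent of its bases under peaks of the other line; dashed lines are the medians, 58.6% in the 178 domains broad in REH only and 39.2% in the 246 broad in 697 only, and points of low and of high share occur among both short and long domains.

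The other line had a median of 2 peaks in line-only domains of either kind. The lengths of its peaks, single or joined, are those of whole peaks that touch a domain, with any part outside it. At chr17:17639500-17649779, for example, the longest REH peak had 9577 bp, while REH peaks covered 5033 bp of the domain. Among REH-only domains, the longest 697 peak had 5000 bp or more in 83, 2000 bp or more but less than 5000 bp in 62 and less than 2000 bp in 21, and 12 had none. Among 697-only domains, the longest REH peak fell in these classes in 82, 90, 52 and 22. A peak just short of the threshold, of 9000 bp or more, was present in 12 REH-only and 8 697-only domains, and one of 8000 bp or more in 30 and 26. On the other side of the threshold, 58 of all REH broad peaks and 69 of those of 697 were shorter than 11000 bp. The class of a domain can thus depend on the threshold from either side. The number of peaks of the other line was 1 in 23 REH-only domains, 2 in 67 and 3 or more in 76, up to 8, and it was 1 in 44 697-only domains, 2 in 99 and 3 or more in 81, up to 6. The gaps between these peaks had a median of 1262 bp for 697 in REH-only domains (281 gaps) and of 1986.5 bp for REH in 697-only domains (304 gaps), and 28.1% and 19.4% were of 1000 bp or less. Joining the other line's peaks across gaps of up to 1000 bp gave a joined peak of 10000 bp or more in 20 REH-only domains (11.2%, 7.39 to 16.7) and in 13 697-only domains (5.28%, 3.11 to 8.83).

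The longest domain broad in REH only was chr7:82552534-82589405, with 36872 bp in 1 REH peak and no 697 peak. Others of the 10 longest differed from it, with 697 covering between 32.1% and 90.7% of each. At chr21:39841041-39872501, 5 peaks of 697 covered 22858 of 31461 bp, and the longest of them had 8100 bp. At chr9:139538719-139568716, 4 peaks of 697 covered 9635 of 29998 bp. At chr10:80885250-80911169, 697 covered 22687 of 25920 bp, with a longest peak of 9047 bp. At chr11:122526101-122550318, 697 had 8 peaks, the most in any line-only domain, and these covered 10823 of 24218 bp. This domain lies left of the second longest domain broad in both lines, in the same group of neighbours. The remaining 5 were chr9:37280788-37304377, chr5:124237627-124259996, chr10:104554394-104576650, chr3:35680286-35702063 and chr1:167585044-167606561, with lengths of 21518 to 23590 bp.

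The longest domain broad in 697 only was chr10:15472450-15517474, with 45025 bp, of which 4 REH peaks covered 3069 bp (6.82%). It was followed on the same chromosome by 697-only domains at chr10:15518393-15530228 and chr10:15531044-15555025, with REH peaks over 0 and 2679 bp of them. At chr8:35413858-35455803, 6 REH peaks covered 17823 of 41946 bp. At chr1:23914404-23949099, 5 REH peaks covered 22617 of 34696 bp, the highest share (65.2%) among the 10 longest. At chr5:158101381-158133963, REH covered 7243 of 32583 bp. At chr2:235036523-235063726, the only REH peak had 187 bp in a domain of 27204 bp. The other members of the 10 longest were chr2:1793347-1821955, chr8:68511570-68537054, chr1:235046862-235070749 and chr22:26124215-26148048, where REH covered between 16.8% and 54.8%.

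**Figure D3:**
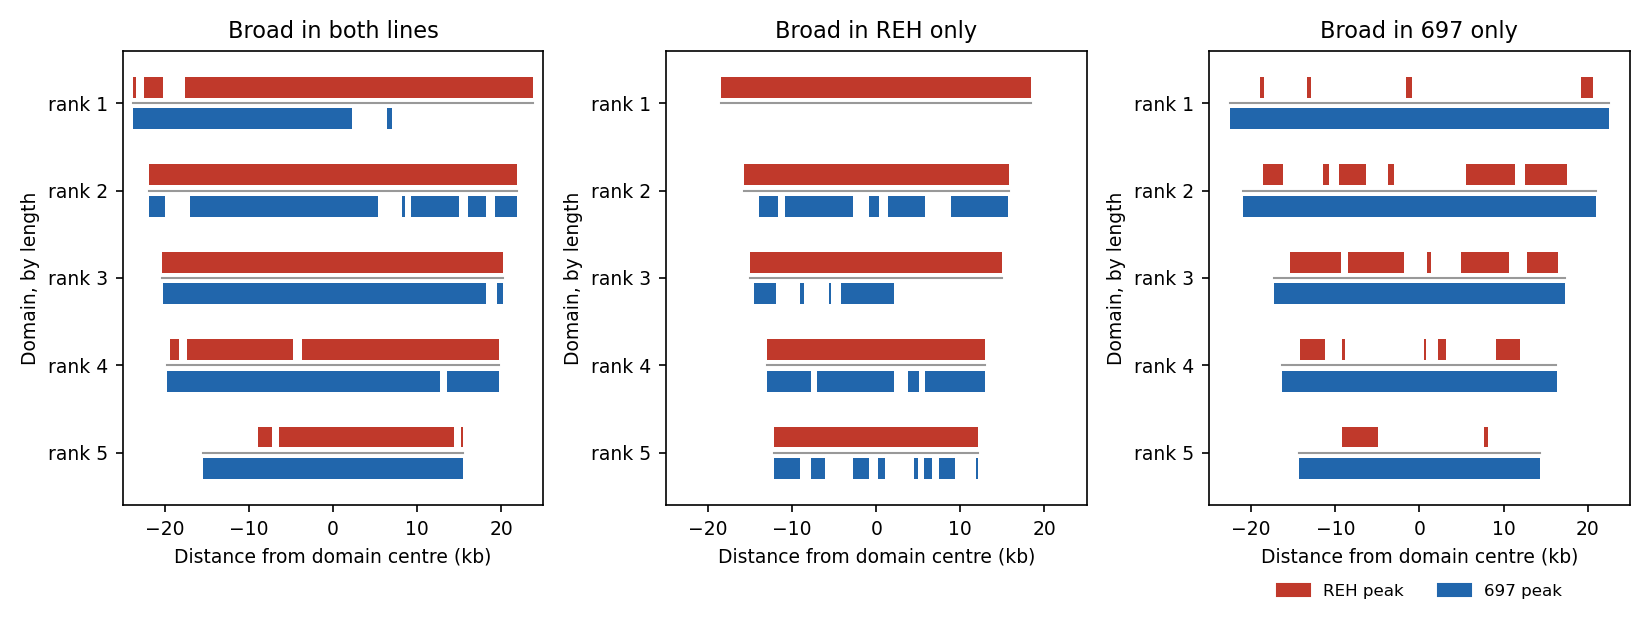
Peaks of both lines in the 5 longest domains of each class. REH peaks are drawn above and 697 peaks below the gray line that marks each domain, against the distance from its centre in kb; domains broad in 1 line hold 1 unbroken peak of that line and 0 to 8 separate peaks of the other, and the longest REH-only domain holds none.

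No peak of the other line was called anywhere in 12 REH-only domains (6.74%, 3.90 to 11.4) and in 22 697-only domains (8.94%, 5.98 to 13.2). These 12 had a median length of 14118 bp (range 10428 to 36872) and the 22 of 11546.5 bp (10005 to 23802). The shares are of the line-only domains. Of all broad peaks, 95.3% in REH and 93.3% in 697 overlapped a peak of the other line. This held for 92.1% and 84.4% of the peaks from 5000 bp up to the threshold, and for 64.3% and 38.5% of all autosomal peaks. A lack of any overlap was thus less frequent among broad peaks than among all peaks, most of which are shorter. The nearest 697 peak was a median of 51072.5 bp away from the 12 (range 4876 to 243544) and the nearest REH peak 15279 bp from the 22 (2451 to 279582). The emptiest region in 697 held 2 of the 12, chr7:82523957-82540100 and chr7:82552534-82589405, within a stretch of about 1298230 bp between neighbouring 697 peaks. For 2 others, chr4:46946276-46958925 and chr4:46972783-46983314, that stretch had 341409 bp. At chr18:28605617-28624104 it had 569729 bp, and neither line had another peak within 50000 bp of this domain. At chr17:47068107-47085964 the stretch had 238059 bp, and REH peaks covered 31.0% of the flanks. The 697-only domains farthest from a REH peak were chr19:57386669-57397375 (279582 bp), chr12:72416227-72434371 (181725 bp) and chr20:58150502-58174303 (107288 bp). For 8 of the 22, in contrast, a REH peak lay within 5000 bp, as at chr12:1928966-1942324, 2451 bp from the nearest.

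Covered bases that differ 2 times or more between the lines were less frequent among the domains than among all regions. They were at least 2 times higher in REH in 68 domains (13.5%), against 21.4% of all merged regions, and at least 2 times higher in 697 in 152 (30.3%), against 57.8%. Most merged regions are short and were called in 1 line only, so the background is high, and in line-only domains this count is the same as that of domains covered less than 50% by the other line. The members were selected on length in the same lists, so these counts describe them and test nothing.

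The regions around the domains were also rich in peaks. Within 50000 bp on each side, REH peaks covered a median of 18.5% (15.8 to 19.9) of the bases around REH broad peaks, against 4.81% around all REH peaks and 12.2% (11.5 to 12.8) around those from 5000 bp up to the threshold. The values for 697 were 27.5% (25.1 to 29.2), 9.51% and 19.4% (18.4 to 20.2). A broad peak had a median of 8 further peaks of its line in these flanks in REH and of 15 in 697, against 4 and 8 for all peaks. Only 1 REH broad peak and no 697 broad peak had empty flanks, against 10.3% and 4.35% of all peaks. The flanks followed the class of the domain in part. Around 697-only domains the flank coverage was higher in 697 in 233 of 246, with medians of 27.7% in 697 and 8.55% in REH. Around REH-only domains it was higher in REH in 110 of 178, with medians of 18.4% in REH and 14.7% in 697. Around domains broad in both lines it was higher in 697 in 53 of 78 (medians 26.3% and 18.4%). The 697 list covers more bases in all, and the part of this in the flank values was not tested.

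**Figure D4:**
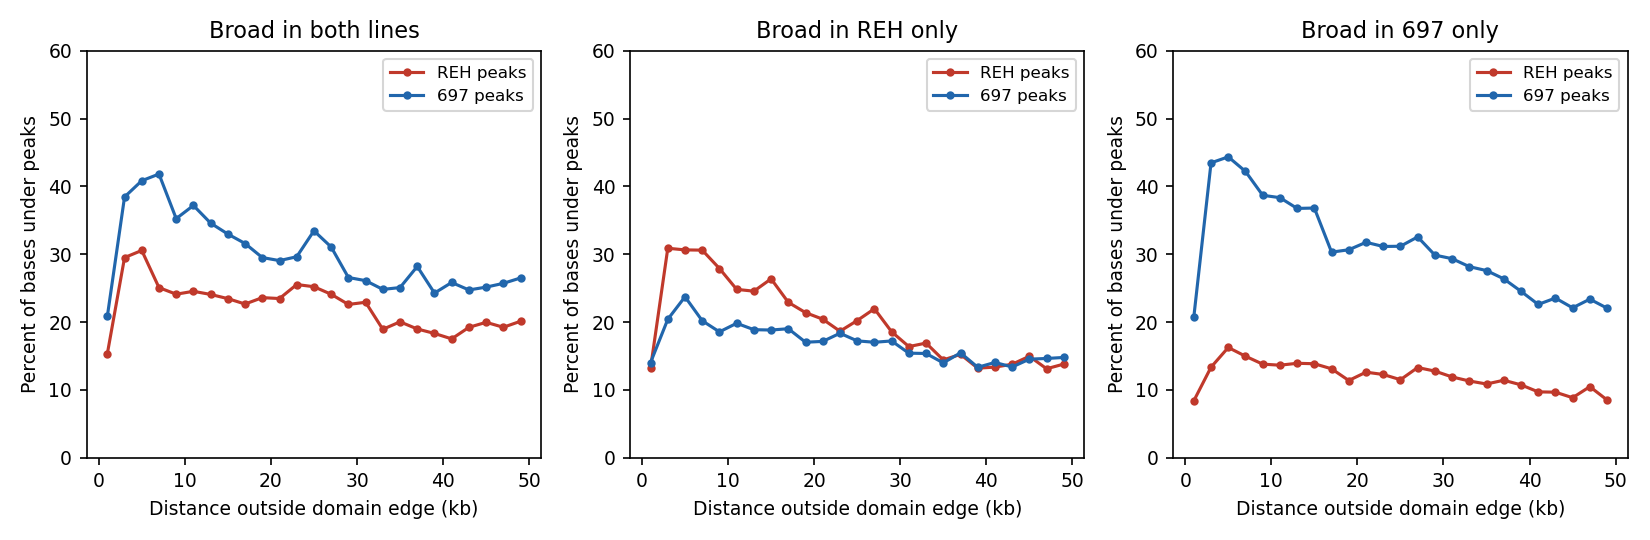
Coverage by peaks outside the domain edges, by class. The percent of bases under REH and 697 peaks in bins of 2000 bp is plotted against the distance from the domain edge in kb. Values are summed over both sides of all domains of a class. The first bin was lower than the second in each curve. A gap must follow an edge where a line's own broad peak ends, but peaks of the other line can run across it. Why the other line was also low there was not tested. Around 697-only domains coverage fell from 43.5% to 22.1% for 697 and from 13.4% to 8.53% for REH between the second and the last bin.

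Part of the domains lay near each other, but the same grouping was not computed for peaks of other lengths. Most peaks of any length have neighbours, since only 10.3% of all REH and 4.35% of all 697 peaks had empty flanks. Some neighbouring domains are parted by a short gap only. At chr10:15518393-15530228, the 697 peaks on either side lay 919 and 816 bp away. Of the 502, 206 (41.0%) fell in 81 groups in which neighbours were at most 100000 bp apart: 52 pairs, 20 groups of 3 and 9 of 4 or more. In 27 groups all domains were 697 only, in 16 all were REH only, in 4 all were broad in both, and 34 were mixed, of which 11 held both REH-only and 697-only domains. The largest group, chr6:14208860-14519282, held 6 domains, all 697 only, and 697 peaks covered 65.8% of its 310423 bp against 11.6% for REH. A second group of 4, also all 697 only, lay at chr6:14863186-14928432 (89.5% against 29.4%). At chr7:92260815-92469971, 3 domains were REH only, and the coverage was 41.3% in REH and 12.9% in 697. The group at chr17:55510218-55639643 held 4 domains broad in both lines and 1 in 697 only, with coverages of 70.8% in REH and 85.2% in 697. At chr17:75395478-75477773, where 5 domains lay within 82296 bp, 1 was broad in both, 2 in REH only and 2 in 697 only, and the lines covered 70.4% and 79.9%. Domains of one group are not independent of each other.

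The number of domains on each of the 22 autosomes was read against the peaks there. Chromosome 1 held the most, with 36 domains of 697 only and 17 of REH only, but it also held 8022 peaks of 697 and 4153 of REH. Its share of the broad peaks of 697, 12.8% (Wilson interval 9.64 to 16.9), was near its 11.1% of the covered bases. Chromosome 16 held the most domains of REH only (19, against 12 of 697 only), and its 7.78% (5.09 to 11.7) of the REH broad peaks stood against 5.11% of the covered bases, at the lower bound of the interval. Measured against the bases under all peaks, chromosome 5 was rich in broad peaks in both lines, with 9.73% of those of REH (6.68 to 13.97) against 5.48% of its covered bases, and with 9.48% of those of 697 (6.76 to 13.1) against 5.28%. Of the 46 domains on chromosome 5, groups of 3, 2 and 5 lay close together. They were at chr5:157619278-157834122, chr5:157934796-157996418 and chr5:158101381-158313246, and all of their domains were broad in 697. Chromosome 15 held 0.389% of the REH broad peaks (0.0687 to 2.17) and 2.82% of the REH covered bases. Chromosome 19 held 1.83% (0.844 to 3.94) of the broad peaks of 697 and 4.13% of its covered bases, while in REH the values were 5.45% (3.27 to 8.93) and 5.35%. For 20 of the 22 autosomes in REH (not 5 and 15) and 19 in 697 (not 5, 13 and 19) the interval held the share of covered bases, and domains in groups make these intervals too narrow.

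**Figure D5:**
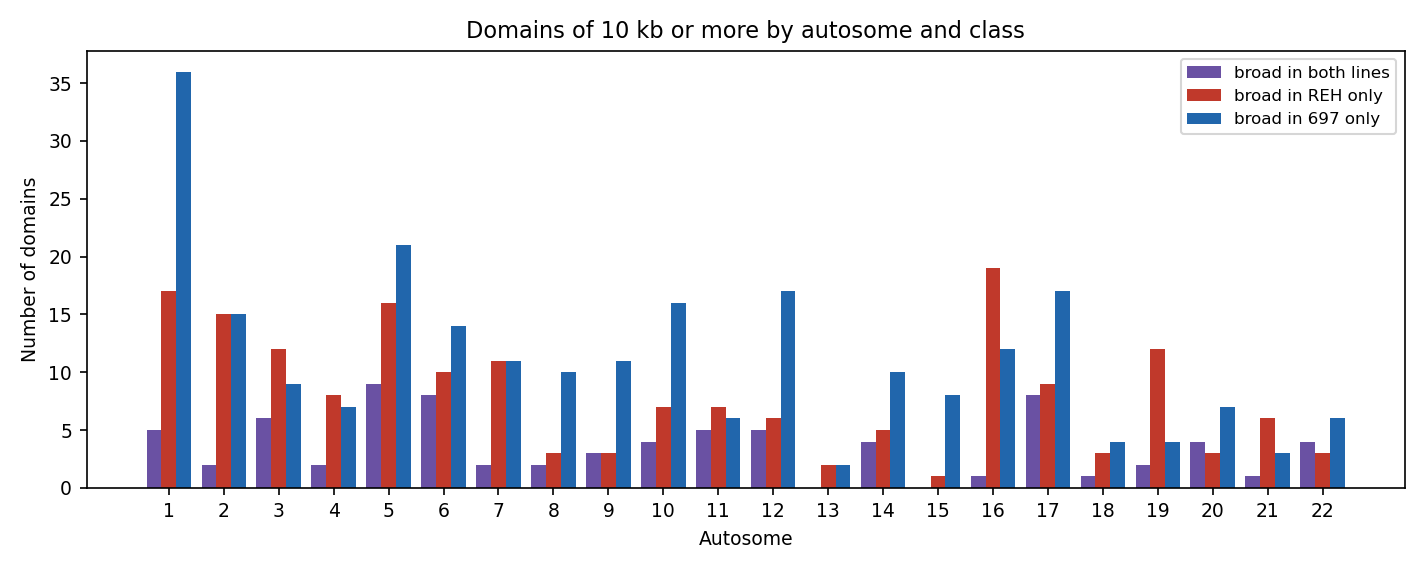
Number of domains on each autosome by class. Bars give the count of domains broad in both lines, in REH only and in 697 only; chromosome 1 had the most domains broad in 697 only (36) and chromosome 16 the most broad in REH only (19).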

How the data were processed

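H3K27ac ChIP-seq and input DNA were sequenced for REH and 697, and 1 peak list per line was used. According to the study's methods, reads were mapped to hg19 with Bowtie and peaks were called with MACS 1.4, whereas per the file headers MACS 2.1.0.20150731 was run in broad mode against the input, with 1 tag kept per position and q-value cutoffs of 0.05 and 0.1, and the submitters' processing notes name Bowtie2 and MACS2. The authors deposited, for each peak, its start, end and length, a pileup signal, a fold enrichment ratio, and a p-value and q-value on the −log10 scale, and of these only start, end and length were used. The members, thresholds and lists were chosen with earlier results of these data known.

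Broad peaks on the 22 autosomes were merged on an overlap of 1 bp or more. Covered bases are the bases of a domain under peaks of a line, whatever their length. Percents carry Wilson intervals and medians binomial intervals, both at the 95% level. Flanks were 50000 bp on each side. Named were the 10 longest domains of each class, and the lncRNAs whose hg19 window could be read from the axes of the study's drawings, while domains named otherwise (without a peak of the other line, of extreme share, or in groups) were chosen after their values were seen. The reference given was GRCh38, so gene starts, gene lists and GC content of the domains were not analysed here. The scripts were tested on simulated peaks. Intervals came from scipy 1.17.1, tables were handled with pandas 2.3.3 and numpy 2.4.6, and figures were drawn with matplotlib 3.10.9, all under Python 3.11.15.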

Additional observations from a re-analysis of the deposited data

Results flagged for a closer look

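Chromosome X was left out of the domains. There, 5 of 1075 REH peaks and 4 of 1001 697 peaks had 10000 bp or more, and they formed 7 domains. On the autosomes these lengths were reached by 257 of 43547 REH peaks and 327 of 73460 697 peaks. Of these, 2 were broad in both lines (chrX:40026107-40039170 and chrX:118810485-118829626), 3 in REH only and 2 in 697 only. The 697 peaks covered 58.3% to 76.7% of the REH-only domains, and the REH peaks 34.9% and 90.4% of the 697-only domains.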

How the results depend on the processing

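Of 57 recomputed values, 27 stayed within 1.5 times the main count or within the interval of the main median, and 30 did not. Most of these follow from the length threshold itself. With 8, 12.5 and 15 kb, REH had 469, 148 and 79 broad peaks and 697 had 612, 174 and 92. The domains broad in both lines then numbered 166, 37 and 20, those in REH only 301, 110 and 59, and those in 697 only 440, 137 and 72. Covered bases were at least 2 times higher in REH in 119, 36 and 16 domains and in 697 in 292, 77 and 45. At 15 kb the median share of REH-only domains under 697 peaks was 69.6%. Merging the peaks of a line within 1000 bp raised the broad peaks to 343 in REH and to 559 in 697, with 120 domains broad in both and 437 in 697 only, a median share of 32.0% under REH peaks in the latter, and 310 domains at least 2 times higher in 697. With a fold of 1.5 in place of 2, 116 domains were higher in REH, and with a fold of 4, 36 were higher in REH and 84 in 697. Under each of these settings more domains were broad in 697 only than in REH only, except with equal numbers of peaks (188 and 190). The alternatives on gene starts were not run, since they need an hg19 annotation. No paired analysis was possible because there was 1 library per line and no test. The resolution of a domain's ends is limited by fragment lengths of about 187 bp (REH) and 185 bp (697), and the depth by 1 library of each line.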
